A study of Mus musculus with 28 samples.

Results

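Von Willebrand factor (VWF), the large plasma glycoprotein that tethers platelets at sites of vessel injury, was applied to murine bone marrow-derived macrophages (BMDMs), and transcripts were counted by bulk RNA-seq. The 10 listed genes of the dual-specificity MAP kinase phosphatases (Dusp1, Dusp2, Dusp4, Dusp5, Dusp6, Dusp7, Dusp8, Dusp10, Dusp14 and Dusp16) were taken by name from the 54532 genes of the count table. All 10 were present in it. They were followed across 28 cultures in 6 groups. Control cultures received PBS, VWF cultures received plasma-derived VWF at 10 µg/ml and LPS cultures received bacterial lipopolysaccharide at 100 ng/ml, each for 3.5 h or 16 h. There were 5 Control, 5 VWF and 4 LPS cultures at each time. The macrophages were grown from the marrow of C57BL/6J mice and plated overnight in medium with M-CSF, the macrophage growth factor, and all groups were then given fresh medium with 1 mM CaCl2. The cultures are labelled as biological replicates, but the sources used here do not say whether they came from separate mice, so the p-values measure the spread between these cultures, which may be technical.

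MAP kinases (ERK, JNK and p38) are switched on when a MAP2 kinase phosphorylates a threonine and a tyrosine in their activation loop, and dual-specificity phosphatases switch them off by removing both phosphates. Several of these phosphatases are themselves products of immediate early or delayed early genes, which makes them feedback brakes on the pathway that induced them. In macrophages they are known for limiting how long p38, JNK and ERK stay active after Toll-like receptor signals, and so for shaping cytokine output. The members fall into nuclear inducible enzymes (Dusp1, Dusp2, Dusp4, Dusp5), cytoplasmic ERK-directed enzymes (Dusp6, Dusp7), enzymes directed mainly at JNK and p38 (Dusp8, Dusp10, Dusp16), and the small atypical phosphatase Dusp14, which lacks the MAP kinase-binding domain of the others.

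Libraries held between 41131209 and 77699206 counts. Of 10 macrophage markers, 9 reached 10 TPM (a transcript level scaled for gene length and library) in every group other than LPS at 16 h, where 8 did because Mrc1, the mannose receptor, lay between 5.03 and 8.44 TPM. Cd163 reached no more than 3.40 TPM in any culture. Stromal markers, mostly Col1a1 and Col1a2, summed to 4.03 to 150 TPM over all cultures. Neutrophil and precursor markers, mostly S100a8 and S100a9, summed to 19.7 to 128 TPM. The B cell marker Cd79b reached 20.8 TPM and the dendritic cell marker Xcr1 reached 11.5 TPM. Control 16 h replicate 5 stood apart: its mean correlation with the other cultures of its group was 0.910, against 0.970 to 0.972 for the rest of that group. LPS 16 h replicate 4 was next at 0.946. In these 2 libraries the macrophage genes Cd68 (366 and 554 TPM, against 1910 to 2230 and 1580 to 2130 TPM in the rest of their groups) and Csf1r (202 and 157 TPM, against 462 to 591 and 272 to 443 TPM) were also low, and Dusp4 and Dusp7, which were low in both, are given at 16 h with and without them. In bulk samples, fewer cells of a type and less RNA per cell cannot be told apart.

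Which phosphatase supplied most of the summed TPM of the 10 members changed from group to group. TPM is not scaled by TMM factors, so it orders members within a group here and does not compare groups. In Control cultures at 3.5 h, Dusp1 led with 162 TPM and 34.1% of the sum, followed by Dusp6 with 105 TPM, whose range overlapped that of Dusp1. Dusp2 led in VWF cultures at 3.5 h with 218 TPM (48.1%) and in LPS cultures with 442 TPM (64.5%), in both without overlap with the next member, Dusp1. At 16 h, Dusp6 led in Control cultures with 71.4 TPM (36.1%), overlapping Dusp1, and in VWF cultures with 89.8 TPM, clear of Dusp7. In LPS cultures at 16 h, Dusp1 alone gave 418 TPM, 80.1% of the sum, clear of Dusp2 at 34.6 TPM. Dusp8, Dusp10 and Dusp14 were the low members: the highest TPM in any culture was 6.04 for Dusp8, 8.36 for Dusp10 and 12.5 for Dusp14.

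**Figure D1:**
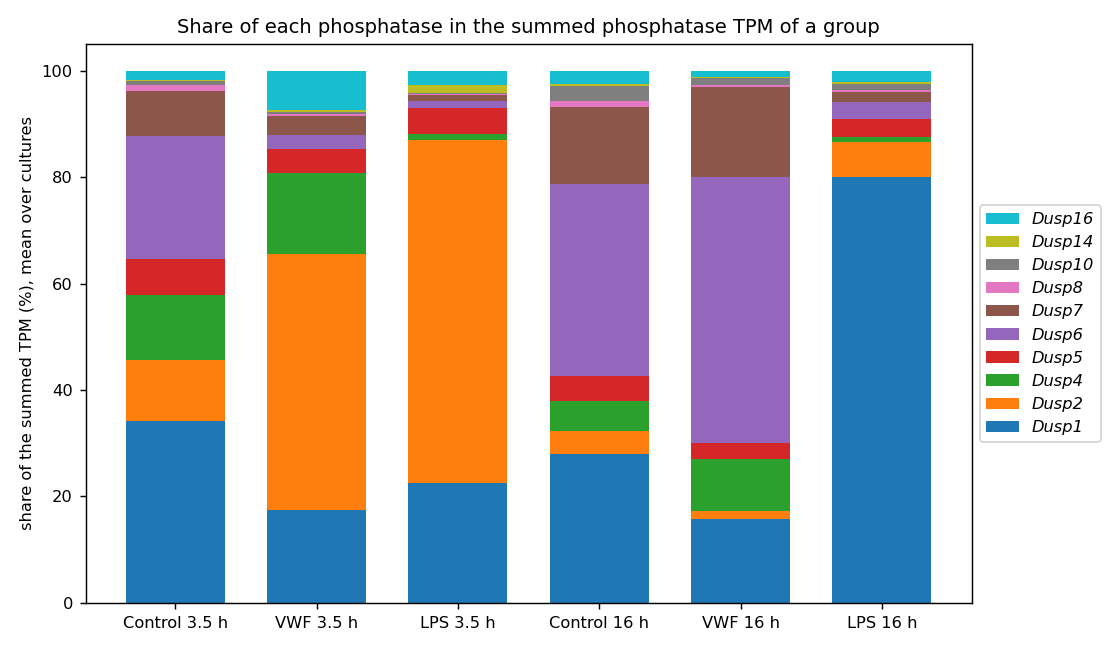
Share of each of the 10 phosphatase genes in the summed phosphatase TPM (vertical axis, percent, mean over the cultures of a group; 6 groups on the horizontal axis, n = 5 Control, 5 VWF and 4 LPS cultures at each time). Dusp2 made up 48.1% in VWF and 64.5% in LPS cultures at 3.5 h, and Dusp1 made up 80.1% in LPS cultures at 16 h.

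For 9 of the 10 members RefSeq gives a promoter window on GRCm38.p6, and the 250 bases before the start were searched on both strands for motifs of factors that act after MAP kinase or cytokine signals. The cyclic AMP response element TGACGTCA, which binds CREB and ATF factors, was present in the windows of 2 members, Dusp1 and Dusp8, against 1.55% of all 32851 windows. The CArG box of serum response factor was present in that of Dusp5 (1.47% of all windows), and the interferon-type site TTCNNNGAA in that of Dusp14 (7.02%). The AP-1 site TGANTCA (6.75%) and the kappaB site (7.25%) matched no member's window. A match is a description of letters and not evidence of binding, and a window without one says nothing about the factor. The windows of Dusp1, Dusp8 and Dusp5 are shown because the first pair share a motif and the Dusp5 window holds a pair of adjoining CArG boxes. Capitals mark the motif matches. The Dusp1 window is chr17:26508473-26508722 (minus strand) with its match starting 143 bases before the start, the Dusp8 window is chr7:142095285-142095534 (minus strand) with matches starting 107 and 63 bases before it, and the Dusp5 window is chr19:53528895-53529144 (plus strand) with matches starting 82 and 72 bases before it.
Dusp1: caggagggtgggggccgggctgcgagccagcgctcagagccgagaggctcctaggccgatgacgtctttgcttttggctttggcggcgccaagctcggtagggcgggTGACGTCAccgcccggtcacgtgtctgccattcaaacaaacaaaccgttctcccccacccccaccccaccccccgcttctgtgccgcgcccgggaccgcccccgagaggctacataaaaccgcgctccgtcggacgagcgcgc
Dusp8: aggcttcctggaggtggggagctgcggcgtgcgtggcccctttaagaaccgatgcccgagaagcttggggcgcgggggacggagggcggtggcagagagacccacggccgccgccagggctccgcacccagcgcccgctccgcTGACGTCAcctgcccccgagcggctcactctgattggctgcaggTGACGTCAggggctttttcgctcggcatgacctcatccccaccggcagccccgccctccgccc
Dusp5: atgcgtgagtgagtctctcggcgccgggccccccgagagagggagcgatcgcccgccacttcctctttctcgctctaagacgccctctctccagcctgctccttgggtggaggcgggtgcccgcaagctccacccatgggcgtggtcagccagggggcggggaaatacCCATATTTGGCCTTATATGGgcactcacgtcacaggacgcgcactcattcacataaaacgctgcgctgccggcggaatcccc

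Differences between groups were tested with the edgeR quasi-likelihood test on counts, over genes reaching 10 TPM in at least 1 culture of the comparison, and a gene was called at a Benjamini-Hochberg adjusted p below 0.05 and an absolute log2 fold change above 1. VWF and LPS cultures of a time share its Control cultures. A member that reached 10 TPM in only 1 of the compared groups entered the test through the group where it was high, so the counts of tested members describe and support nothing. With VWF at 3.5 h, 2 of 7 tested members rose (Dusp2, Dusp16; 9.10% of all tested genes were called higher) and 2 fell (Dusp6, Dusp7; 5.59% called lower). With LPS at 3.5 h, 3 of 8 rose (Dusp2, Dusp14, Dusp16; background 12.8%) and 3 fell (Dusp4, Dusp6, Dusp7; 11.8%), where Dusp14 was tested only through the LPS and Dusp4 only through the Control cultures. At 16 h, none of 6 tested members rose with VWF (4.55%) and Dusp2 fell (4.15%), whereas 4 of 7 rose with LPS (Dusp1, Dusp2, Dusp5, Dusp16; 15.3%) and Dusp6 fell (12.4%). At 16 h Dusp2 and Dusp5 were tested against VWF only through Control cultures, and against LPS Dusp16 only through LPS and Dusp4 only through Control cultures. Dusp8 and Dusp10 never reached 10 TPM, so the low members are described from a fit over the genes kept by edgeR's filterByExpr, which tested all 10. It called 3 of 10 higher and 2 lower with VWF and 3 higher and 4 lower with LPS at 3.5 h, and 0 higher and 4 lower with VWF and 5 higher and 1 lower with LPS at 16 h. In that fit the share of genes called in either direction was 14.8% for VWF and 27.5% for LPS at 3.5 h, and 9.47% for VWF and 27.9% for LPS at 16 h.

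**Figure D2:**
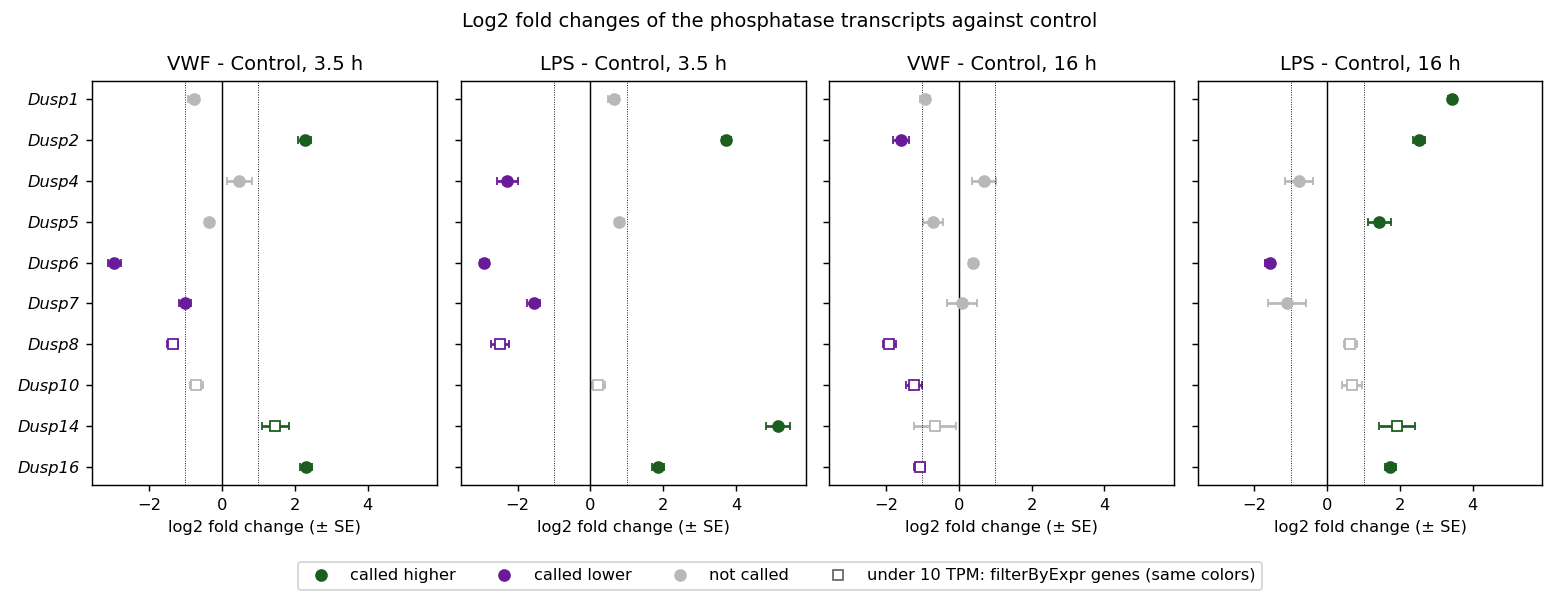
Log2 fold change ± SE of each phosphatase gene (rows) for VWF and LPS against Control at 3.5 h and 16 h (panels), from edgeR's quasi-likelihood fits; dotted lines mark an absolute log2 fold change of 1, and open squares are members under 10 TPM, taken from the fit over filterByExpr genes. Dusp2 and Dusp16 lie on the higher side and Dusp6 on the lower side for both treatments at 3.5 h. At 16 h VWF and LPS lie on opposite sides of 0 for every member, though not all were called and VWF was near 0 for Dusp7 (0.09).

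Among the nuclear phosphatases, Dusp2 (PAC1, ENSMUSG00000027368, chr2:127336159-127338376, plus strand of GRCm38) changed most between groups. At 3.5 h its level in CPM (counts scaled to library size and TMM factors) was 29.2, 40.0, 27.98, 34.7 and 29.6 in Control cultures and 125, 214, 204, 169 and 119 in VWF cultures. In LPS cultures it was 414, 459.7, 419 and 476 CPM. The 3 groups did not overlap, with VWF between Control and LPS. The rise was 4.83-fold with VWF (log2 fold change 2.27, SE 0.18, adjusted p 9.77e-07) and 13.3-fold with LPS (3.73, SE 0.13, adjusted p 1.17e-09).

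At 16 h the order of Dusp2 reversed for VWF. Control cultures held 6.10, 5.66, 4.15, 6.23 and 5.89 CPM, VWF cultures 1.99, 1.72, 1.37, 2.50 and 2.59 CPM, and LPS cultures 35.1, 38.3, 29.0 and 29.6 CPM. VWF cultures now lay below every Control culture and LPS cultures above all of them. Dusp2 fell with VWF by 1.58 on the log2 scale (SE 0.22, adjusted p 0.000313), and with LPS it was 5.72-fold above Control (log2 2.52, SE 0.16, adjusted p 9.36e-07). The VWF fall was tested only because Control 16 h replicate 4 reached 10.4 TPM. Without that culture Dusp2 was not tested and no member was called.

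Dusp1 (MKP-1, ENSMUSG00000024190, chr17:26505590-26562128, minus strand), the phosphatase best known for restraining p38 and JNK in macrophages, was called against Control only with LPS at 16 h when all cultures were used. At 3.5 h Control cultures held 138, 141, 125, 206 and 189.7 CPM, VWF cultures 96.4, 103, 88.9, 92.4 and 115 CPM, and LPS cultures 242, 299.8, 222 and 259 CPM. The groups did not overlap, but neither difference reached the log2 threshold of 1 (-0.77, SE 0.15, adjusted p 0.00111 with VWF; 0.64, SE 0.16, adjusted p 0.0042 with LPS). Scaled to library size alone, without TMM factors, the LPS difference in Dusp1 was 0.10 with an adjusted p of 0.628.

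At 16 h, Dusp1 stood at 65.7, 55.0, 54.4, 63.4 and 62.2 CPM in Control cultures and at 29.1, 31.5, 30.6, 32.7 and 48.2 CPM in VWF cultures. LPS cultures held 665, 698, 642 and 636 CPM, clear of both. Dusp1 was 10.7-fold higher with LPS than in Control (log2 3.42, SE 0.11, adjusted p 2.41e-08). With VWF it was 0.92 lower on the log2 scale (log2 fold change -0.92, SE 0.14, adjusted p 0.000607), short of the threshold, and without VWF 16 h replicate 5, the culture at 48.2 CPM, it passed (-1.07, adjusted p 2.52e-05).

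Dusp4 (MKP-2, ENSMUSG00000031530, chr8:34807297-34819894, plus strand) separated the treatments at 3.5 h. Control cultures held 27.2, 41.04, 35.8, 80.8 and 58.4 CPM and VWF cultures 78.2, 52.7, 47.2, 50.3 and 127 CPM, which overlapped (log2 fold change 0.48, SE 0.34, adjusted p 0.304). LPS cultures held 6.99, 11.9, 11.3 and 10.9 CPM, below every culture of the other groups. Dusp4 fell with LPS by 2.28 on the log2 scale (SE 0.30, adjusted p 4.86e-05). Of the 10 macrophage markers, Itgam, Cd14 and Fcgr1 were above Control in CPM in every LPS culture at 3.5 h and the other 7 overlapped Control, with a summed level of 9280 to 15600 CPM against 9530 to 14700 CPM in Control. In VWF cultures at 16 h, Adgre1, Csf1r, Itgam, Lyz2 and Fcgr1 were above every Control culture, Cd14 was below and 4 overlapped. The 10 markers summed there to 18600 to 27500 CPM, against 5530 to 17000 CPM in Control and 9820 to 15100 CPM in LPS cultures at 16 h. The part of this difference in the member values at 16 h was not tested. At 16 h Dusp4 ranged from 4.62 to 12.9 CPM in Control, 9.84 to 30.2 CPM in VWF and 2.91 to 9.12 CPM in LPS cultures, and neither treatment was called against Control (0.69, adjusted p 0.159 with VWF; -0.78, adjusted p 0.116 with LPS). Without Control replicate 5 the VWF difference in Dusp4 was 0.51 (adjusted p 0.151), and without both libraries that stood apart the LPS difference was -0.73 (adjusted p 0.0113), neither past the threshold.

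Dusp5 (ENSMUSG00000034765, chr19:53529109-53542431, plus strand), a nuclear phosphatase specific for ERK, rose with LPS at 16 h. At 3.5 h it ranged from 22.0 to 25.0 CPM in Control, 15.9 to 21.1 CPM in VWF and 35.3 to 48.7 CPM in LPS cultures, without overlap. The LPS difference of 0.80 (SE 0.11, adjusted p 9.67e-05) and the VWF difference of -0.37 (SE 0.10, adjusted p 0.00922) stayed under the threshold, and with library size scaling the LPS difference in Dusp5 was 0.26 (adjusted p 0.0675). At 16 h Control cultures held 11.7, 7.74, 5.90, 7.81 and 3.88 CPM and LPS cultures 28.9, 20.0, 15.1 and 17.0 CPM, and Dusp5 rose 2.69-fold (log2 1.43, SE 0.32, adjusted p 0.0038). That call was lost with library size scaling (0.84, adjusted p 0.0599). VWF cultures at 16 h lay between 3.64 and 6.25 CPM, overlapping Control (-0.72, adjusted p 0.0819). An annotated gene on the opposite strand covers 22.1% of the exon length of Dusp5, and the strand setting of the counting is not given in the sources used here, so its counts may include reads of that gene.

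**Figure D3:**
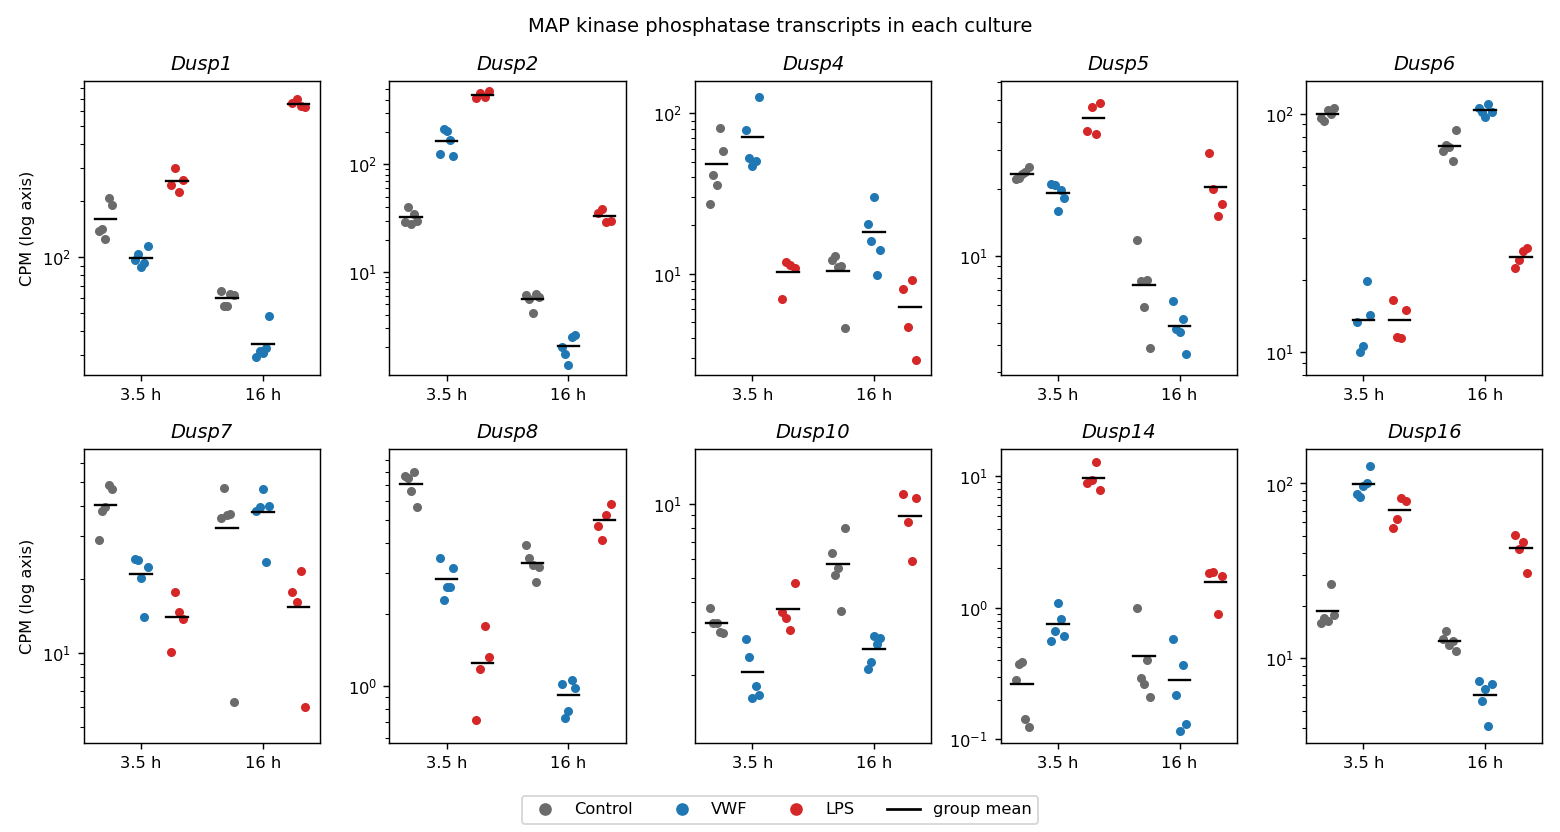
CPM of each phosphatase gene in each of the 28 cultures (points; log vertical axis, scaled separately per panel), by time and treatment, with the group mean as a bar. Dusp6 shows Control cultures at 93.3 to 106 CPM above VWF and LPS cultures at 3.5 h, and at 16 h VWF cultures (96.4 to 109.5 CPM) above Control; Dusp1 in LPS cultures at 16 h (636 to 698 CPM) lies above every other culture.

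The cytoplasmic phosphatase Dusp6 (MKP-3, ENSMUSG00000019960, chr10:99263231-99267489, plus strand) binds ERK selectively, and its transcript is widely used as a readout of ERK activity. At 3.5 h Control cultures held 96.0, 93.3, 103, 99.95 and 106 CPM. VWF cultures held 13.4, 10.0, 10.7, 19.9 and 14.3 CPM, and LPS cultures 16.5, 11.6, 11.5 and 15.0 CPM. Both treatments lay far below Control and overlapped each other. Dusp6 fell by 2.95 on the log2 scale with VWF (SE 0.18, adjusted p 1.05e-07) and by 2.91 with LPS (SE 0.13, adjusted p 7.12e-09). The difference between the treatments was -0.02 (SE 0.21, adjusted p 0.956).

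At 16 h the treatments parted. Dusp6 was at 69.8, 73.7, 72.8, 63.2 and 85.7 CPM in Control cultures, at 106, 102, 96.4, 109.5 and 101 CPM in VWF cultures, and at 22.6, 24.3, 26.6 and 27.3 CPM in LPS cultures. VWF cultures lay above every Control culture, by a log2 fold change of 0.38 (SE 0.09, adjusted p 0.00976) that was under the threshold. LPS cultures were still below Control, and Dusp6 fell by 1.58 (SE 0.12, adjusted p 3.59e-06).

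Dusp7 (ENSMUSG00000053716, chr9:106368632-106375724, plus strand), the closest relative of Dusp6 among the members, was lower with both treatments at 3.5 h. Control cultures held 29.0, 38.0, 39.7, 48.6 and 46.9 CPM, VWF cultures 24.3, 24.1, 20.3, 14.0 and 22.6 CPM, and LPS cultures 10.1, 17.8, 14.8 and 13.8 CPM. Control lay above both treatments, which overlapped each other. The fall with LPS was 1.56 on the log2 scale (SE 0.18, adjusted p 1.67e-05). The fall with VWF was 1.02 (SE 0.17, adjusted p 0.000505), just past the threshold, and it was not called without Control replicate 4 or 5 or VWF replicate 3 or 4, where it reached -0.89 at the least, nor in the filterByExpr fit (-0.96) or with no filter (-0.97).

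At 16 h, Dusp7 turned on the 2 libraries that stood apart. Control cultures held 35.6, 47.3, 36.6, 37.0 and 6.29 CPM, VWF cultures 38.1, 39.6, 46.8, 23.6 and 40.1 CPM, and LPS cultures 17.8, 16.1, 21.7 and 6.02 CPM. The lowest Control and LPS values are those of Control replicate 5 and LPS replicate 4. With all cultures the LPS difference was -1.11 (SE 0.53, adjusted p 0.107), and without both of these libraries it was -1.11 (SE 0.13, adjusted p 4.38e-05). The VWF difference was 0.09 (adjusted p 0.9) with all cultures and -0.16 (adjusted p 0.455) without Control replicate 5.

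Of the JNK and p38 phosphatases, Dusp16 (MKP-7, ENSMUSG00000030203, chr6:134715468-134792625, minus strand) rose with both treatments at 3.5 h. Control cultures held 15.9, 17.0, 16.4, 26.7 and 17.6 CPM, VWF cultures 86.8, 83.3, 97.1, 100.4 and 126 CPM, and LPS cultures 55.5, 62.3, 83.0 and 79.7 CPM. Both treatments lay above Control, and LPS cultures lay below every VWF culture. Dusp16 rose 4.98-fold with VWF (log2 2.32, SE 0.17, adjusted p 4.79e-07) and 3.62-fold with LPS (1.86, SE 0.16, adjusted p 1.84e-06).

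At 16 h, Dusp16 stood at 12.9, 14.4, 11.8, 12.5 and 11.0 CPM in Control cultures, at 7.40, 5.71, 6.68, 4.08 and 7.11 CPM in VWF cultures, and at 50.9, 42.2, 46.2 and 30.9 CPM in LPS cultures. The groups did not overlap, with VWF lowest. Dusp16 rose 3.31-fold with LPS (log2 1.73, SE 0.15, adjusted p 7.66e-06). Neither Control nor VWF cultures reached 10 TPM at 16 h, and in the filterByExpr fit Dusp16 fell with VWF by 1.07 (SE 0.15, adjusted p 0.000442).

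Dusp8 (ENSMUSG00000037887, chr7:142079490-142095843, minus strand), a low-abundance JNK and p38 phosphatase, was read from 28 to 610 counts per library. At 3.5 h it was at 7.66, 7.52, 6.60, 7.98 and 5.66 CPM in Control, 3.45, 2.30, 2.62, 2.61 and 3.14 CPM in VWF, and 0.714, 1.18, 1.79 and 1.32 CPM in LPS cultures, in steps without overlap. In the filterByExpr fit it fell with VWF by 1.35 (SE 0.15, adjusted p 1.52e-05) and with LPS by 2.48 (SE 0.24, adjusted p 2.68e-06). At 16 h it was at 2.75 to 3.91 CPM in Control, 0.728 to 1.05 CPM in VWF and 4.13 to 5.84 CPM in LPS cultures, so that LPS had moved from the lowest to the highest group. It fell with VWF by 1.91 (SE 0.18, adjusted p 2.62e-05), and the LPS difference of 0.63 (SE 0.18, adjusted p 0.0142) was under the threshold.

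Dusp10 (MKP-5, ENSMUSG00000039384, chr1:184013302-184075636, plus strand), which acts on JNK and p38, had 77 to 516 counts per library. At 3.5 h it was at 2.98 to 3.78 CPM in Control, 1.61 to 2.81 CPM in VWF and 3.06 to 4.78 CPM in LPS cultures, and no difference from Control reached the threshold (-0.70, adjusted p 0.0109 with VWF; 0.22, adjusted p 0.328 with LPS). At 16 h Control cultures held 6.32, 5.12, 5.49, 3.66 and 8.02 CPM and VWF cultures 2.12, 2.26, 2.88, 2.69 and 2.85 CPM. All VWF cultures lay below Control, and Dusp10 fell by 1.22 (SE 0.21, adjusted p 0.00171). LPS cultures (5.88 to 11.0 CPM) overlapped Control (0.69, adjusted p 0.0649).

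Dusp14 (MKP-6, ENSMUSG00000018648, chr11:84048041-84069261, minus strand) was close to absent outside the LPS cultures at 3.5 h. These held 8.85, 9.32, 12.9 and 7.88 CPM, against 0.281, 0.376, 0.389, 0.144 and 0.124 CPM in Control and 0.559, 0.665, 1.09, 0.823 and 0.610 CPM in VWF cultures, which rest on 6 to 53 counts. The groups did not overlap. In the filterByExpr fit the log2 fold change with LPS was 5.22 (SE 0.32, adjusted p 4.51e-08) and that with VWF was 1.47 (SE 0.37, adjusted p 0.00758). At 16 h LPS cultures held 1.83, 1.86, 0.889 and 1.74 CPM and Control cultures 0.993, 0.292, 0.264, 0.402 and 0.212 CPM, with an overlap between the lowest LPS and the highest Control culture. The filterByExpr fit gave 1.91 (SE 0.49, adjusted p 0.00982) with LPS and -0.66 (SE 0.57, adjusted p 0.492) with VWF. Lck, 1 of 6 T cell markers, was also highest in the LPS cultures at 3.5 h (30.8 to 57.1 CPM, against 0.356 to 3.51 CPM in all other cultures), and the 6 markers summed to 33.8 to 61.6 CPM there and to 4.41 to 8.88 CPM in Control cultures. In those LPS cultures Cd3g was at 0, Cd3e at no more than 0.024 CPM and Cd3d at no more than 0.112 CPM.

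Set directly against LPS at 3.5 h, VWF cultures had 1 of 8 tested members higher (Dusp4; 4.71% of all genes) and 4 lower (Dusp1, Dusp2, Dusp5, Dusp14; 6.71%), where Dusp4 was tested only through VWF and Dusp14 only through LPS cultures. Dusp4 differed by 2.78 on the log2 scale (SE 0.33, adjusted p 5.9e-05). Dusp1 differed by -1.38 (SE 0.12, adjusted p 6.37e-06) and Dusp2 by -1.44 (SE 0.17, adjusted p 4.77e-05). Dusp5 differed by -1.14 (SE 0.14, adjusted p 7.47e-05), a call lost with library size scaling (-0.83), and Dusp14 by -3.72 (SE 0.23, adjusted p 7.38e-07). Dusp16 was 0.49 higher (SE 0.14, adjusted p 0.0165), under the threshold. In the filterByExpr fit, where 12.7% of genes were called in either direction, Dusp8 was also higher with VWF (1.11, SE 0.25, adjusted p 0.00485).

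At 16 h, Dusp4, Dusp6 and Dusp7 were higher with VWF than with LPS (11.1% of all genes) and Dusp1, Dusp2, Dusp5 and Dusp16 lower (14.5%). Of these 7 tested members, 4 entered only through the group where they were high, Dusp4 through VWF and Dusp2, Dusp5 and Dusp16 through LPS cultures. The widest gaps were in Dusp1 (-4.29, SE 0.17, adjusted p 5.05e-08) and Dusp2 (-4.05, SE 0.22, adjusted p 2.58e-07). Dusp16 differed by -2.81 (SE 0.21, adjusted p 2e-06), Dusp5 by -2.09 (SE 0.24, adjusted p 3.69e-05) and Dusp6 by 2.01 (SE 0.09, adjusted p 7.23e-08). Dusp4 differed by 1.52 (SE 0.40, adjusted p 0.00802), and without LPS replicate 4 by 1.29 (adjusted p 0.0114), still called. Dusp7 differed by 1.26 (SE 0.33, adjusted p 0.00807), and without LPS replicate 4 by 0.99, which was not called. Over filterByExpr genes, of which 27.1% were called in either direction, Dusp8 (-2.51, adjusted p 3.19e-06), Dusp10 (-1.88, adjusted p 3.49e-05) and Dusp14 (-2.53, adjusted p 0.0016) were lower with VWF as well.

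The phosphatases also changed between 3.5 h and 16 h in Control cultures, which had the medium change but no stimulus. None of 7 tested members was called higher at 16 h (4.00% of all genes) and 4 fell (Dusp1, Dusp2, Dusp4, Dusp5; 5.09%). Over filterByExpr genes, of which 10.9% were called in either direction, Dusp8 also fell, by 1.10 (SE 0.15, adjusted p 0.000257). The falls were 2.47 for Dusp2 (SE 0.16, adjusted p 2.85e-06), 2.19 for Dusp4 (SE 0.33, adjusted p 0.000608), 1.60 for Dusp5 (SE 0.24, adjusted p 0.000502) and 1.36 for Dusp1 (SE 0.16, adjusted p 0.000109) on the log2 scale. Dusp6 differed by -0.39 (SE 0.10, adjusted p 0.00926) and Dusp7 by -0.28 (SE 0.39, adjusted p 0.588). Dusp16 differed by -0.53, under the threshold, and was tested only because Control 3.5 h replicate 4 reached 12.6 TPM. Without Control 16 h replicate 5, Dusp4 differed by -1.9996 (adjusted p 0.000211) and Dusp7 by -0.0057 (adjusted p 0.977).

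In VWF cultures, Dusp6 rose 7.82-fold between 3.5 h and 16 h (log2 2.97, SE 0.18, adjusted p 7.92e-08) and was the 1 member of 7 called higher (9.15% of all genes). The 4 nuclear members and Dusp16 fell (12.2%), of which Dusp2, Dusp5 and Dusp16 were tested only through the 3.5 h cultures. Over filterByExpr genes, of which 24.4% were called in either direction, Dusp8 (-1.61, SE 0.19, adjusted p 1.64e-05) and Dusp14 (-1.36, SE 0.44, adjusted p 0.0185) fell as well. Dusp2 fell by 6.30 (SE 0.25, adjusted p 4.65e-09) and Dusp16 by 3.94 (SE 0.18, adjusted p 1.07e-08). In LPS cultures Dusp1 rose 2.69-fold (log2 1.43, SE 0.12, adjusted p 1.34e-05), the 1 of 7 called higher (14.6%), while Dusp2 fell by 3.68 (SE 0.13, adjusted p 2.12e-07) and Dusp14 by 2.54 (SE 0.29, adjusted p 6.98e-05), the 2 called lower (13.5%), Dusp14 tested only through the 3.5 h cultures. Over filterByExpr genes, of which 29.9% were called in either direction, Dusp8 rose with time in LPS cultures by 2.04 (SE 0.28, adjusted p 0.00021) and Dusp10 by 1.32 (SE 0.25, adjusted p 0.00147), while Dusp5 fell by 1.00 (adjusted p 0.00303).

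Whether the effect of a treatment against Control differed between the times was tested as an interaction. For VWF, the effect on Dusp6 rose by 3.36 on the log2 scale (SE 0.20, adjusted p 2.36e-10), as 1 of 7 members called higher (5.69% of all genes). Those on Dusp2 (-3.82, SE 0.27, adjusted p 2.33e-09) and Dusp16 (-3.41, SE 0.23, adjusted p 1.22e-09) fell (7.77%). Each of these 3 effects had opposite signs at the 2 times. No difference beyond the error was found for Dusp1 (-0.12, SE 0.21, adjusted p 0.746). Over filterByExpr genes, of which 13.0% were called in either direction, the VWF effect on Dusp14 also fell (-2.10, SE 0.70, adjusted p 0.0317).

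For LPS, the effects on Dusp1 (2.80, SE 0.21, adjusted p 1.44e-08), Dusp4 (1.53, SE 0.50, adjusted p 0.0187) and Dusp6 (1.34, SE 0.18, adjusted p 8.83e-06) rose with time, 3 of 8 members (13.5% of all genes). The effects on Dusp4 (-2.28 at 3.5 h, -0.78 and not called at 16 h) and Dusp6 (-2.91 and -1.58) were negative at both times and became smaller. Those on Dusp2 (-1.20, SE 0.20, adjusted p 7.99e-05) and Dusp14 (-3.31, SE 0.60, adjusted p 0.000225) fell (12.8%). Dusp14 was tested only through the LPS cultures at 3.5 h and Dusp4 only through Control cultures. Each was high there, so both calls are descriptions. Dusp16 showed -0.11 (SE 0.24, adjusted p 0.726). In the filterByExpr fit, with 24.6% of genes called in either direction, the LPS effect on Dusp8 rose by 3.09 (SE 0.29, adjusted p 1.89e-07). Without both libraries that stood apart the same 5 members were called over the 10 TPM genes, with Dusp1 at 2.83 and Dusp4 at 1.57. Dusp4 was called in 8 of 9 alternatives (adjusted p up to 0.05). It was also called in all 18 fits with 1 culture left out (adjusted p up to 0.0489).

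The time courses of VWF and LPS cultures also differed from each other, with the change in Dusp6 greater under VWF (2.00, SE 0.25, adjusted p 3.21e-06; 10.7% of all genes) and the changes in Dusp1 (-2.93, SE 0.20), Dusp2 (-2.63, SE 0.26), Dusp16 (-3.32, SE 0.26) and Dusp4 (-1.29, SE 0.53, adjusted p 0.0481) lower (14.3%). The Dusp4 call was at the edge of the threshold and was lost in 5 alternatives and in 12 of 18 fits with 1 culture left out. Dusp4 was also tested here only through VWF cultures, where it was high, so its call is a description. Over filterByExpr genes, of which 23.6% were called in either direction, the change in Dusp8 was also lower under VWF (-3.59, SE 0.32, adjusted p 7.72e-08).

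Across the 28 cultures, the log2 CPM of Dusp16 followed that of Dusp2 (Pearson r = 0.92) and ran opposite to that of Dusp6 (r = -0.92), and Dusp5 followed Dusp2 (r = 0.89). The points share 6 group means and these values are descriptive. Among 8867 genes, those whose pattern was most like a member's were Malt1 (r = 0.99) and Cxcl2 (0.97) for Dusp16, Ccl3 (0.98) and Ext1 (0.97) for Dusp2, Sik3 (0.98) and Spty2d1 (0.95) for Dusp1, and Kdm6b (0.94) and Mdfic (0.93) for Dusp5. For the others they were Adi1 and Lpar6 (both 0.96) for Dusp6, Xpo5 (0.96) and Dtx4 (0.95) for Dusp4, Appl2 (0.96) and Kdm2b (0.95) for Dusp7, and Lck (0.94) and Ccnd2 (0.93) for Dusp14.

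For the pathway lists, the shares of all genes called higher and lower are those given for the members in the same comparison (9.10% and 5.59% with VWF, 12.8% and 11.8% with LPS at 3.5 h). Of 8 MAP kinases tested, the p38 isoform Mapk11 rose with VWF at 3.5 h (1.64, SE 0.20, adjusted p 3.94e-05) and none fell. Of 7 tested with LPS, p38alpha (Mapk14) rose by 1.21 (SE 0.13) and Mapk7 (ERK5, -1.59, SE 0.14) and Nlk fell, Nlk tested only through Control cultures. Mapk11 was not among these, as no LPS or Control culture at 3.5 h reached 10 TPM. Its mean at 3.5 h was 10.3 CPM in LPS, 8.54 CPM in VWF and 2.585 CPM in Control cultures, so its rise was not particular to VWF. None of 7 was called at 16 h with either treatment. Of 6 MAP2 kinases none was called with VWF at either time, while Map2k4, which activates JNK and p38, rose with LPS by 1.94 (SE 0.09, adjusted p 9.7e-09) at 3.5 h and by 1.04 at 16 h, and Map2k1, which activates ERK, rose by 1.22 and 1.57.

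Upstream, 4 of 13 tested MAP3 kinases and adaptors rose and 1 fell with VWF at 3.5 h, and 3 of 12 rose and 3 fell with LPS. Map3k8 (TPL2), the kinase that activates ERK after Toll-like receptor signals, rose by 2.51 with VWF (SE 0.09, adjusted p 2.79e-09) and 3.19 with LPS (SE 0.11, adjusted p 1e-09). At 16 h it was still higher with LPS (1.78, SE 0.12), and no gene of the list was called with VWF. Map3k3 fell with LPS at 3.5 h (-1.56, SE 0.31) and Map3k20 at 16 h (-1.90, SE 0.15). Map3k20 was tested at 16 h only through Control cultures, where it was high.

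Downstream of the MAP kinases, 3 of 8 tested kinases rose and 1 fell with VWF at 3.5 h, and 1 rose and 3 fell with LPS. Mapkapk2 (MK2), a p38 target, rose by 1.41 and 2.36, and Mknk2, a kinase of the translation factor eIF4E, fell by 2.24 and 2.52 with VWF and LPS. Mknk1 fell with LPS (-1.31, SE 0.16). None of 7 was called at 16 h with either treatment.

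Of 4 tested ERK feedback inhibitors, Spry2 fell with VWF at 3.5 h by 2.45 (SE 0.12, adjusted p 2.93e-08) and at 16 h by 1.07, and Spred1 rose at 3.5 h with VWF (1.13, SE 0.09) and LPS (1.87, SE 0.13). Errfi1 rose with LPS at 3.5 h (1.45, SE 0.26). Spred1 was also higher with LPS at 16 h (1.19, SE 0.17). Of 7 other phosphatases acting on MAP kinases, Ptpn7, a tyrosine phosphatase of ERK and p38, fell at 3.5 h with VWF (-1.05, SE 0.09) and LPS (-2.85, SE 0.11). Ppm1b rose with LPS at 3.5 h (1.05), and Ptpn7 (-1.17) and Ppm1d (-1.14) fell with LPS at 16 h. Among 6 other dual-specificity phosphatases tested at 3.5 h, Dusp9, a relative of Dusp6, fell with VWF (-2.17, SE 0.22) and LPS (-3.47, SE 0.27), Dusp3 fell with both (-1.06 and -1.19), and Dusp28 rose with LPS (1.66). At 16 h Dusp28 was 2.62 higher with LPS, and Dusp22 fell with VWF (-1.17). Dusp9 at 3.5 h and Dusp22 at 16 h were tested only through Control cultures, where they were high.

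**Figure D4:**
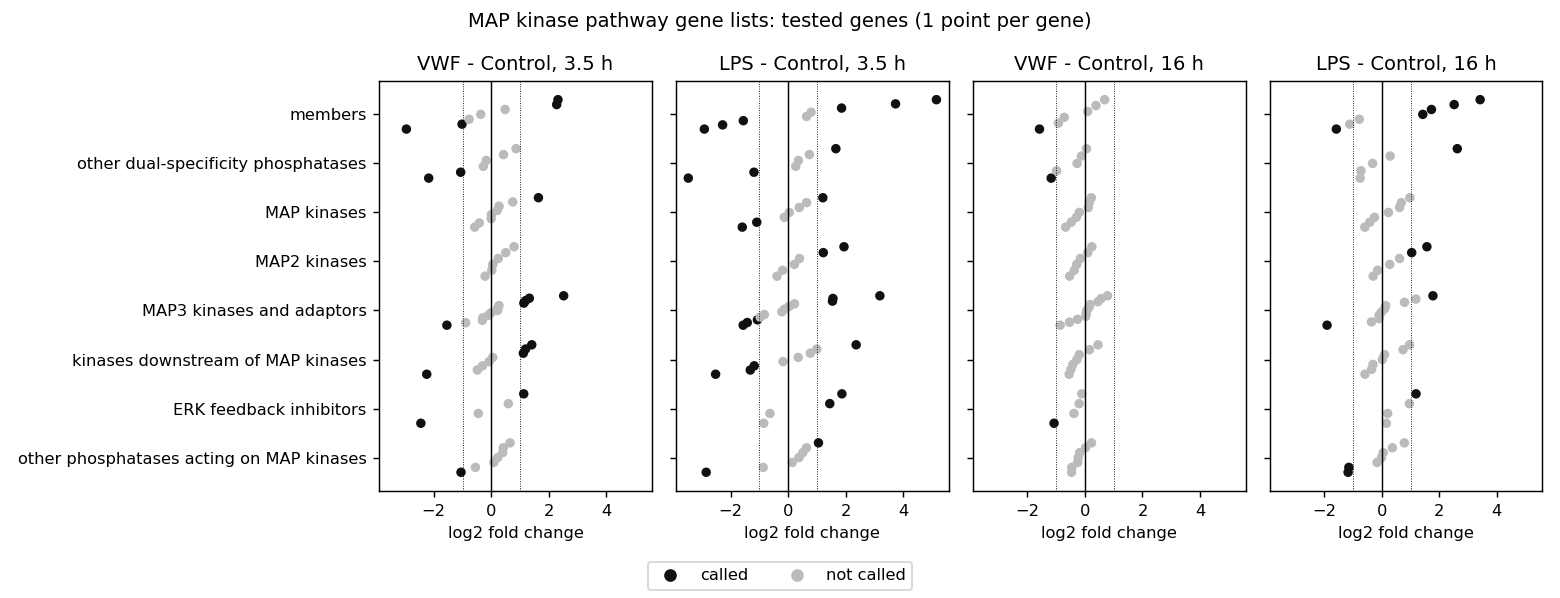
Log2 fold change (horizontal axis) of every tested gene of the 10 phosphatases and 7 other MAP kinase pathway lists (rows), 1 point per gene, for VWF and LPS against Control at 3.5 h and 16 h (panels); black points were called and grey points were not. With VWF at 16 h the phosphatases have 1 call (Dusp2) and the other dual-specificity phosphatases (Dusp22) and the ERK feedback inhibitors (Spry2) have 1 each, the 5 other lists have none, and 4.55% and 4.15% of all genes were called higher and lower.

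As a description of the 10 members as a list, their median absolute log2 fold change in the filterByExpr fit was 1.16 with VWF and 2.07 with LPS at 3.5 h, beside 0.31 and 0.57 over all genes of that fit. At 16 h it was 0.81 with VWF and 1.499 with LPS, beside 0.27 and 0.64.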

How the data were processed

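Bulk RNA-seq of 28 BMDM cultures was analysed. The deposited values were raw read counts per Ensembl gene, which the authors made with STAR on GRCm38 per the submitters' processing notes. The sources used here do not give the annotation, the strand setting or the treatment of reads mapping to several places. Gene names and exon lengths came from GENCODE M21. Counts were tested in edgeR 4.0.16 (R 4.3.3) by glmQLFit and glmQLFTest with TMM factors, on the groups of each comparison, over genes reaching 10 TPM in at least 1 culture, with Benjamini-Hochberg adjustment over all tested genes. A call needed an adjusted p below 0.05 and an absolute log2 fold change above 1. Interactions used the 4 groups concerned. SE was the log2 fold change divided by the root of F. CPM was scaled by TMM factors (0.745 to 1.25), TPM was not, so groups were compared in CPM, members within a group in TPM, and only the 10 TPM minimum, the check of macrophage markers and the libraries that stood apart within their groups also used TPM. Alternatives were DESeq2 1.42.0, RLE factors, library size only, filterByExpr, no filter, 10 TPM in any culture, 1 fit over all groups, a replicate block and leaving out each culture. A further one, without both libraries that stood apart, was chosen after seeing the data.

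The members and the gene lists were chosen with earlier results of these data known. All members are given, and from each list up to 3 genes with the largest absolute log2 fold change among those called against Control, plus genes named after their values were seen (Nlk and Dusp22). Likeness was Pearson's r of log2 CPM. No pair of replicates agreed within counting noise (chi-square per degree of freedom of at least 15.8). Between VWF and LPS at 16 h the deviations of same-numbered cultures correlated at 0.159 to 0.781 over 4 pairs. Differently numbered cultures there reached 0.387, so the numbers did not set the pairs apart. In every other pair of groups the lowest same-numbered correlation was at most 0.0813.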

Additional observations from a re-analysis of the deposited data

Results flagged for a closer look

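In 7 of 60 groups of values, 1 culture lay far from the rest of its group, where chance alone would do so in about 1 in 20. Control 16 h replicate 5 was low in Dusp4 (4.62 CPM, against 11.0 to 12.9 in the others) and in Dusp7 (6.29 CPM, against 35.6 to 47.3), and Cd68 was also low in that library (366 TPM, against 1910 to 2230 TPM). The part of that library's makeup in these values was not tested. Dusp1 was high in VWF 16 h replicate 5 (48.2 CPM, against 29.1 to 32.7). Dusp2 was low in Control 16 h replicate 3 (4.15 CPM, against 5.66 to 6.23). Dusp14 was high in Control 16 h replicate 1 (0.993 CPM, against 0.212 to 0.402) and low in LPS 16 h replicate 3 (0.889 CPM, against 1.74 to 1.86). Dusp16 was high in Control 3.5 h replicate 4 (26.7 CPM, against 15.9 to 17.6).

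The effect of a treatment differed between 3.5 h and 16 h, by the interaction test, for 3 members under VWF and 5 under LPS. Under VWF the change on the log2 scale was -3.82 for Dusp2, 3.36 for Dusp6 and -3.41 for Dusp16. Under LPS it was 2.80 for Dusp1, -1.20 for Dusp2, 1.53 for Dusp4, 1.34 for Dusp6 and -3.31 for Dusp14, which was tested only through the LPS cultures at 3.5 h. Dusp4 was tested there only through Control cultures.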

How the results depend on the processing

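Of 1733 alternative fold changes of the members, 1664 kept their direction and side of the threshold, 32 became called, 27 lost their call and 10 changed sign. The sign changes were in values near 0: Dusp6 between VWF and LPS at 3.5 h (0.28 with library size scaling, and -0.20 to 0.11 with 1 culture left out), Dusp7 with VWF at 16 h (-0.16 to 0.27 with 1 culture left out), the change of the VWF effect on Dusp1 (0.016 with library size scaling) and on Dusp4 (-0.028 to 0.56 with 1 culture left out), and the change of the LPS effect on Dusp16 (-0.28 to 0.0039 with 1 culture left out). With VWF at 16 h the number of members called was 1, but 4 with filterByExpr, 4 with no filter, 2 with 10 TPM in any culture, and 0 to 2 with 1 culture left out (0 without Control replicate 4, 2 without VWF replicate 5). Between the times in LPS cultures it was 3, but 6 with filterByExpr, 5 with no filter, and 3 to 5 with 1 culture left out (5 without LPS 3.5 h replicate 1). Both of these filters test more low genes.

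Over all genes, in the order of VWF and then LPS over Control at 3.5 h and the treatments with each other, the same 3 at 16 h, the times in Control, VWF and LPS cultures, the change of the VWF and of the LPS effect, and VWF against LPS in time course, the number called with filterByExpr was 2099, 3917, 1776, 1362, 4087, 3897, 1570, 3458, 4116, 1972, 3790 and 3576. With no filter it was 2366, 4542, 1942, 1378, 4224, 4242, 1524, 3974, 4298, 1904, 3613 and 3528. Library size scaling moved the median of all genes by over 0.1 with VWF at 3.5 h (-0.22; 608 higher and 652 lower, against 746 and 458), LPS at 3.5 h (-0.55; 704 and 2213, against 1047 and 963), LPS at 16 h (-0.59; 782 and 2319, against 1221 and 989), and VWF against LPS at 3.5 h (0.32; 772 and 334, against 353 and 503) and 16 h (0.46; 1772 and 687, against 837 and 1095), in the change of the VWF effect (0.14, from 0.01) and in the time course of VWF against LPS (0.10, from -0.08; 1176 and 893, against 879 and 1173).

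With the replicate block, Dusp4 (-1.08, adjusted p 0.0251) and Dusp7 (-1.49, adjusted p 0.00811) were also called with LPS at 16 h. Dusp5 was called between the times in LPS cultures (-1.01, adjusted p 0.00691), and the Dusp4 time course was not called (-1.13, adjusted p 0.0589). The share of all genes called with the block is not given here, so a general shift in calls is not set apart. Between VWF and LPS at 16 h the block kept every tested member called. Same-numbered cultures correlated there at 0.159 to 0.781, and differently numbered ones reached 0.387. Dusp8, Dusp10 and Dusp14 rest on few counts, and differences in them, also some larger than the stated errors, may have gone undetected at this depth.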
